A study of Mus musculus with 9 samples.

Results

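Solute carriers (gene symbols Slc, a family number, a letter and a member number) are the membrane proteins that move amino acids, sugars, metals, ions, nucleotides and vitamins into, out of and within the cell. The genes described here are the rows of the deposited table whose symbol starts with Slc and a digit and whose mean over the 9 libraries was at least 1 FPKM (fragments scaled by transcript length and by library size). Slc2a1, Slc2a3, Slc16a1, Slc16a3, Slc30a1 and Slc45a2 were left out. That gave 163 genes of the 369 Slc rows, in a table of 23366 genes. Of the remaining rows, 201 had a mean under 1 FPKM, 46 of them listed at 0 in all libraries, and 5 of the 6 genes left out by name had a mean of at least 1 FPKM. The genes were thus chosen by their mean FPKM over all libraries, so levels are given as a description. Just inside the limit were Slc30a4, Slc45a4 and Slc5a6, with means of 1.02, 1.03 and 1.05 FPKM, and just outside were Slc6a19, Slc41a3 and Slc35e3, with 0.982, 0.97 and 0.914 FPKM. A match of the symbol does not make a transporter: Slc9a3r1 encodes a scaffold protein, Slc4a1ap an adaptor, Slc7a6os is named for lying opposite Slc7a6, and Slc2a4rg-ps is named as a pseudogene. Without these 4, 159 genes remain. Substrate groups below follow the family number, so a member need not carry the substrate its group is named for.

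The libraries were made from CD8+ T cells that had entered B16F10 tumours, a transplantable melanoma, in C57BL/6 mice. Wild-type mice (WT) gave 5 libraries and mice without the interleukin 27 receptor chain Il27ra (IL27ra KO) gave 4. The labels describe bulk lysates prepared with an adaptation of SMART-Seq 2, and they do not state the age of the mice, the part of the gene that was disrupted or whether each library is a separate animal. The p-values therefore reflect how these libraries vary, and part of that variation may be technical.

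Transport across the plasma membrane limits how fast an activated T cell can grow, because growth draws on imported amino acids, glucose, iron and zinc. The heavy chain Slc3a2 (CD98) carries light chains of family 7, such as Slc7a5, Slc7a6, Slc7a7 and Slc7a8, to the surface, where each exchanges a different set of amino acids. Slc1a5, Slc38a1 and Slc38a2 import glutamine and other small neutral amino acids. Family 25 holds the carriers of the inner mitochondrial membrane, family 35 those that feed nucleotide sugars to the Golgi, and families 30 and 39 move zinc out of and into the cytosol. Phagocytes have carriers of their own: Slc11a1 (NRAMP1) pumps divalent metals out of the phagosome, and Slc15a3 and Slc15a4 export peptides and histidine from endosomes and lysosomes.

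Most of these transporters did not pass the test between the genotypes. In the fit over all 10374 genes at or above the same level limit, 3 of the 163 Slc genes rose in IL27ra KO (1.84%, against 3.13% of all genes tested) and 0 fell (against 1.11%; limma, adjusted p under 0.05). In either direction, 4.24% of all genes tested passed. The genes that rose were Slc11a1, Slc7a8 and Slc15a4. At an unadjusted p under 0.05, 21 were higher and 9 lower, together 18.4%, against 15.1% of all genes tested. The median log2 change of the 163 was 0.12, beside 0.02 for all genes tested, and 134 changed by less than 0.5 in size. For 125 genes the 95% interval of the difference lay within 1 log2 unit of 0. Log2 values here are of FPKM plus 1, which understates the change of low genes. All 163 passed the level limit by construction, 8 of them with a WT mean under 1 FPKM and 4 with an IL27ra KO mean under 1 FPKM.

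The promoters of the 3 genes that rose are shown as the 250 bases before the start site in RefSeq (build GRCm38.p6), 5′ to 3′ on the strand of the gene. The window of Slc11a1 lies at chr1:74374953-74375202 on the plus strand, that of Slc7a8 at chr14:54781887-54782136 on the minus strand and that of Slc15a4 at chr5:127617393-127617642 on the minus strand. Capitals mark the matches of 5 short motifs on either strand, which were GAGGAA (bound by PU.1 and other ETS factors), TTCNNNGAA (STAT factors), CACGTG (TFEB, MITF and MYC), TGATGNAAT (ATF4) and TGANTCA (AP-1).
Slc11a1: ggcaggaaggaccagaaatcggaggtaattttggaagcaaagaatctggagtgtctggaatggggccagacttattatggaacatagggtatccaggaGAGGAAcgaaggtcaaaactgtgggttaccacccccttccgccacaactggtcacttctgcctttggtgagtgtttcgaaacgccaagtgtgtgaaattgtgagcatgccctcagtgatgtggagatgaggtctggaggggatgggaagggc
Slc7a8: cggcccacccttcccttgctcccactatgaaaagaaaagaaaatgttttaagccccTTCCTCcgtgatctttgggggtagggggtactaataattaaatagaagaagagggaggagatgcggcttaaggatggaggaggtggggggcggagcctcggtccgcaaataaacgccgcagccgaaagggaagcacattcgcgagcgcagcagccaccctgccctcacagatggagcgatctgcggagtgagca
Slc15a4: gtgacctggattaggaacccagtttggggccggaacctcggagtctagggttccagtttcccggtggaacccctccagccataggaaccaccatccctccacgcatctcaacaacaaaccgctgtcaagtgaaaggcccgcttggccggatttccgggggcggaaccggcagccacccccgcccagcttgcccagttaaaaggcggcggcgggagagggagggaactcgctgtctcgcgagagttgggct
GAGGAA occurred 1 time before Slc11a1, 152 bases before the start, and 1 time before Slc7a8 on the other strand, 194 bases before it. No motif had a match in the Slc15a4 window, and the other 4 motifs had none in any of the 3 windows. GAGGAA is found in 23.1% of 27025 promoters of the same length, 1 per gene, TTCNNNGAA in 7.2%, CACGTG in 6.0%, TGANTCA in 6.9% and TGATGNAAT in 0.825%. Of the 163 Slc genes, 124 had a promoter in the table, and 27, 8, 15, 10 and 0 of them held these motifs in that order. A match is a string of letters and was not tested as a binding site.

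The libraries differed in the FPKM value of 1 fragment and in the cells that gave RNA. Steps between the low FPKM values put 1 fragment in 1 kb at 0.223 to 0.579 FPKM, so members near 1 FPKM rest on few fragments. These steps correspond to 1730000 to 4490000 fragments per library. That figure includes the TMM scaling, so it is not the number sequenced and its spread is not one of depth alone. Il27ra, the targeted gene, had 4.09 to 7.80 FPKM in IL27ra KO and 14.4 to 25.7 FPKM in WT, other than 5.14 FPKM in the library labelled WT replicate 2, which lies inside the IL27ra KO range (limma, adjusted p = 0.0996). T cell genes were present throughout: none of 15 CD8 T cell identity genes was at 0, 2 of them (Cd3e and Cd8a) fell, and their summed level was 1172 to 1881 FPKM in WT, against 542 to 1455 FPKM in IL27ra KO. Of 15 macrophage markers, 14 rose and 0 fell, and their summed level was 78.4 to 344 FPKM in WT, against 454 to 1567 FPKM in IL27ra KO, lowest there in replicate 4. None of these markers was at 0 in an IL27ra KO library, and Fcgr1, Cd14, Trem2 and Ms4a7 were at 0 in at least 1 WT library. Of all genes tested, 3.13% rose and 1.11% fell. Of the 8 dendritic cell markers, 6 were tested and 4 rose (summed level 103 to 413 and 404 to 1439 FPKM). The 4 were Itgax, Cd209a, H2-Ab1 and Cd74. Zbtb46 and Ccr7 did not pass (log2 change -0.25 and 0.04, limma adjusted p = 0.811 and 0.961), and Flt3 and Xcr1 were under the level limit, so the list did not rise as a whole. All 7 melanoma genes did not pass (354 to 1162 and 541 to 1274 FPKM). The neutrophil, B cell, NK cell, CD4 T cell and stromal lists summed to at most 11.3 FPKM, and 6 erythroid genes to 19.4 to 161 FPKM.

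**Figure D1:**
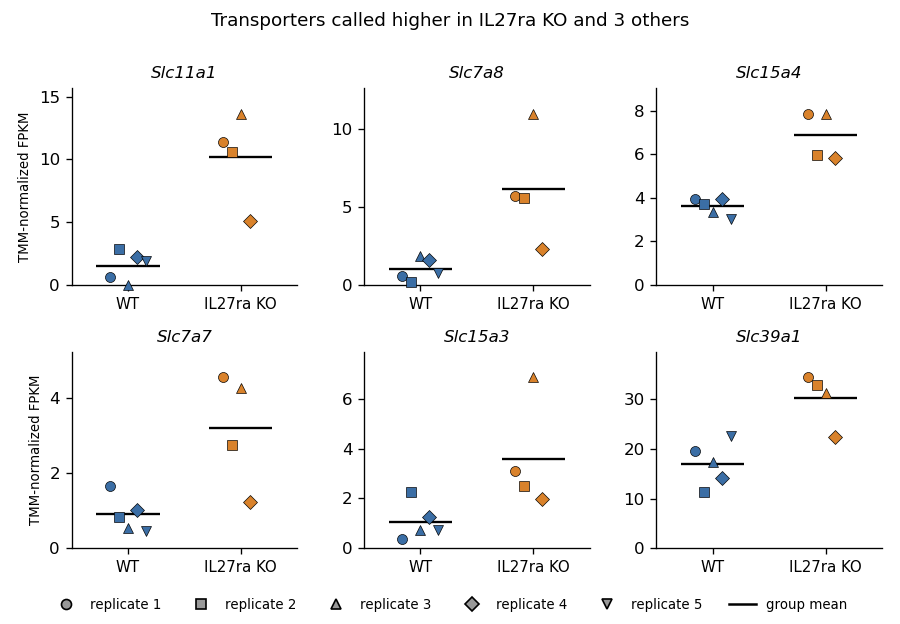
TMM-normalized FPKM of 6 transporters in each library (points, shape by replicate number) with the group mean (bar). The top row holds the genes that passed; all 4 IL27ra KO libraries lie above all 5 WT libraries for Slc11a1, Slc7a8 and Slc15a4, and the groups overlap for Slc7a7, Slc15a3 and Slc39a1.

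Of 20 metal carriers, Slc11a1 rose (against 3.13% of all genes tested), 0 fell (against 1.11%) and 19 did not pass. It had 0.62, 2.9, 0.00, 2.21 and 1.88 FPKM in WT replicates 1 to 5 and 11.4, 10.6, 13.6 and 5.13 FPKM in IL27ra KO replicates 1 to 4. Every IL27ra KO library was above every WT library, and IL27ra KO replicate 4 was the lowest of its group. The means were 1.52 ± 1.19 FPKM (SD, n = 5) and 10.2 ± 3.60 FPKM (SD, n = 4), a log2 change of 2.24 (SE 0.38; limma, adjusted p = 0.0040). Replicate 4 was also the lowest of its group for the macrophage list. With the mean log2 level of the macrophage list as a covariate, the change of Slc11a1 was -0.20 (SE 0.56; limma, adjusted p = 0.893). That level runs with the genotype, and hardly any gene passed in that fit (4 of all genes tested higher and 6 lower). The part of macrophage RNA in the change of Slc11a1 was not tested. In bulk RNA, more cells of a type and more RNA per cell cannot be told apart.

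Slc11a2 (DMT1), the relative of Slc11a1 that brings iron from endosomes into the cytosol, had 7.09 ± 2.89 FPKM in WT, against 10.4 ± 1.66 FPKM in IL27ra KO (SD, n = 5 and n = 4; log2 change 0.56, 95% interval -0.01 to 1.14, adjusted p = 0.343). Slc40a1 (ferroportin), the iron exporter, was under the limit with at most 0.54 FPKM in a library, and so was Slc46a1, a folate and heme carrier, with at most 1.05 FPKM. Slc48a1, which moves heme out of the lysosome, had 12.8 ± 2.39 and 14.5 ± 1.96 FPKM (log2 change 0.17, adjusted p = 0.758). Of 15 other iron-handling genes in the table, 13 were tested. Of these, 3 rose (against 3.13% of all genes tested), 0 fell (against 1.11%) and 10 did not pass. The genes that rose were Hfe, a partner of the transferrin receptor (log2 change 1.61, adjusted p = 0.0244), Steap3, a ferrireductase (1.14, adjusted p = 0.0438), and Trf, which encodes transferrin (1.06, adjusted p = 0.0498). The median log2 change of the 13 was 0.45. IL27ra KO replicate 4, lowest for the macrophage list, was also the lowest of its group for Hfe, Steap3 and Trf (2.67, 2.72 and 14.3 FPKM); the part of macrophage RNA in these 3 changes was not tested.

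Zinc carriers formed a larger group and none of them passed. Slc39a1 (ZIP1), the most abundant zinc importer here, had 19.5, 11.3, 17.3, 14.2 and 22.7 FPKM in WT, against 34.5, 32.8, 31.3 and 22.5 FPKM in IL27ra KO. IL27ra KO replicates 1 to 3 were above all WT libraries, and replicate 4 lay just under WT replicate 5 (log2 change 0.82, SE 0.22, adjusted p = 0.0607). Slc39a4 (ZIP4) pointed the other way: WT libraries had 2.98, 2.77, 6.41, 3.06 and 6.76 FPKM and IL27ra KO libraries 1.63, 1.31, 1.06 and 2.97 FPKM (log2 change -0.95, SE 0.28, adjusted p = 0.0873). Slc39a10 (ZIP10) had means of 5.14 and 6.50 FPKM (adjusted p = 0.592). The 5 tested members of family 30, the zinc exporters, had log2 changes of 0.01 to 0.47.

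Peptide and histidine carriers of family 15 had 3 members, of which 1 rose (against 3.13% of all genes tested). Slc15a4, which also anchors Toll-like receptor signalling in endolysosomes, had 3.95, 3.74, 3.37, 3.94 and 3.05 FPKM in WT, against 7.85, 5.95, 7.85 and 5.85 FPKM in IL27ra KO. Its WT libraries were within 1 FPKM of each other and the groups did not overlap (means 3.61 ± 0.39 and 6.88 ± 1.13 FPKM, SD, n = 5 and n = 4; log2 change 0.77, SE 0.18; limma, adjusted p = 0.0242). This call did not hold when WT replicate 3, WT replicate 5 or any of IL27ra KO replicates 1 to 3 was omitted, with an adjusted p of up to 0.119, while the log2 change with any 1 library omitted stayed between 0.71 and 0.83. With a level limit of 5 FPKM the change was 0.77 (limma, adjusted p = 0.0545), and with the replicate number as a block it was 0.72 (adjusted p = 0.157). With the macrophage level as a covariate the change was 0.60 (limma, adjusted p = 0.568). That level runs with the genotype, and hardly any gene passed in that fit (4 of all genes tested higher and 6 lower). Slc15a3 had 0.37, 2.25, 0.73, 1.27 and 0.72 FPKM in WT, against 3.09, 2.5, 6.88 and 1.96 FPKM in IL27ra KO, where WT replicate 2 was above IL27ra KO replicate 4 (log2 change 1.11, SE 0.31, adjusted p = 0.0687). Slc15a2, a transporter of di- and tripeptides, had a log2 change of 0.45 (adjusted p = 0.579).

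**Figure D2:**
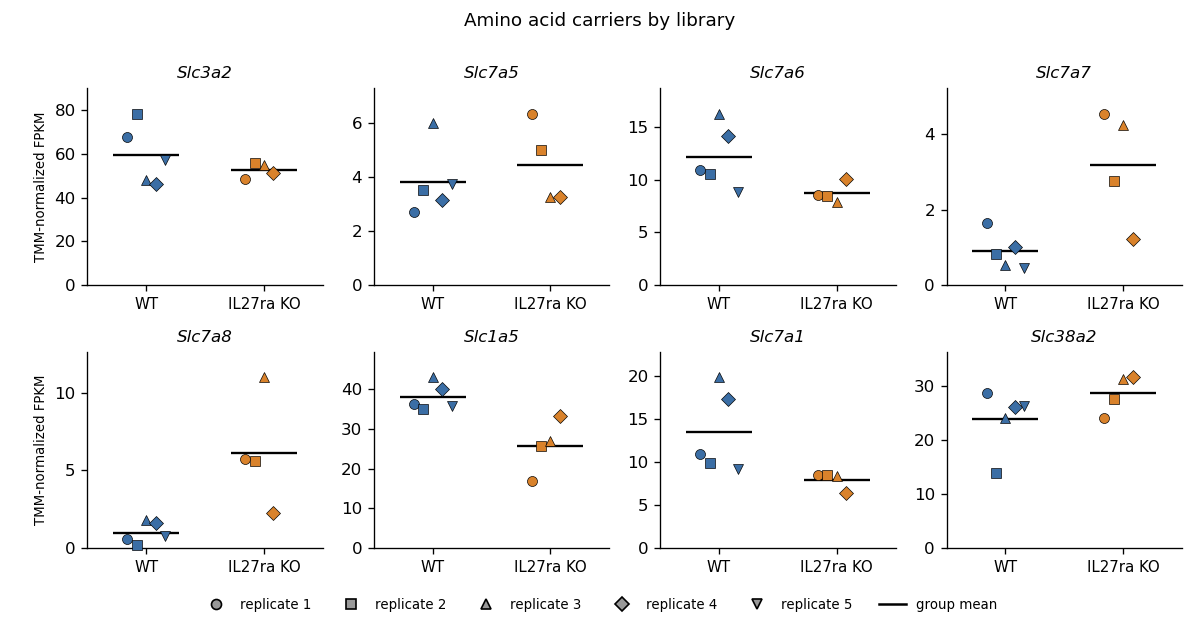
TMM-normalized FPKM of the heavy chain Slc3a2, 4 of its light chains and 3 other amino acid carriers in each library (points, shape by replicate number) with the group mean (bar). Slc7a8 separates the genotypes upward, Slc1a5 and Slc7a1 lie lower in all IL27ra KO libraries without passing the test, and Slc3a2 overlaps.

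The families of plasma membrane amino acid carriers held 25 genes, counted with Slc7a6os, with a median log2 change of 0.18. Among them 1 rose (against 3.13% of all genes tested), 0 fell (against 1.11%) and 24 did not pass. The gene that rose was Slc7a8 (LAT2), a light chain that exchanges neutral amino acids. WT libraries had 0.57, 0.22, 1.84, 1.60 and 0.78 FPKM and IL27ra KO libraries 5.71, 5.59, 10.98 and 2.28 FPKM. All IL27ra KO values were above all WT values, with replicate 3 the highest and replicate 4 the lowest (means 1.00 ± 0.69 and 6.14 ± 3.60 FPKM, SD, n = 5 and n = 4; log2 change 1.76, SE 0.35; limma, adjusted p = 0.0099). With the macrophage level as a covariate its change was 1.28 (SE 0.85; limma, adjusted p = 0.546). That level runs with the genotype, and in that fit only 4 of all genes tested passed as higher and 6 as lower.

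The other light chains of Slc3a2 differed in level and in direction. Slc7a7 (y+LAT1), which exports cationic amino acids, had 1.65, 0.83, 0.54, 1.02 and 0.46 FPKM in WT, against 4.54, 2.75, 4.26 and 1.23 FPKM in IL27ra KO. Only IL27ra KO replicate 4 fell within the WT range, and the gene did not pass (log2 change 1.09, SE 0.29, adjusted p = 0.0507). Its WT mean was 0.900 FPKM, so it met the level limit only through IL27ra KO. Slc7a6 (y+LAT2), which has the same kind of substrates, had 10.9, 10.51, 16.2, 14.2 and 8.78 FPKM in WT, against 8.54, 8.40, 7.91 and 10.03 FPKM in IL27ra KO (log2 change -0.41, 95% interval -0.84 to 0.02, adjusted p = 0.367). Slc7a5 (LAT1), the leucine importer of activated T cells, had 2.71, 3.51, 6.01, 3.15 and 3.73 FPKM and 6.34, 5.00, 3.25 and 3.28 FPKM, with overlapping groups (log2 change 0.18, 95% interval -0.33 to 0.69, adjusted p = 0.808). The heavy chain itself was the fourth most abundant of the 163 genes, at 46.2 to 78.2 FPKM in WT, against 48.3 to 55.8 FPKM in IL27ra KO (log2 change -0.15, 95% interval -0.58 to 0.29, adjusted p = 0.816). On this per-length scale, the summed FPKM of the 4 light chains remained below that of Slc3a2.

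Glutamine and arginine carriers were at middle to high levels and did not pass. Slc1a5 (ASCT2) had 36.4, 34.97, 43.04, 40.03 and 35.7 FPKM in WT, against 16.99, 25.8, 26.9 and 33.3 FPKM in IL27ra KO, all below the lowest WT library (log2 change -0.58, SE 0.21, adjusted p = 0.172). Setting the libraries to equal CD8 T cell marker levels brought that change to 0.03, where the median of all genes moved to 0.54. Slc7a1 (CAT1), an importer of arginine and lysine, had 10.9, 9.85, 19.9, 17.4 and 9.23 FPKM and 8.48, 8.44, 8.40 and 6.38 FPKM, again without overlap (log2 change -0.64, SE 0.24, adjusted p = 0.193). Slc38a2 (SNAT2) had means of 23.9 ± 5.83 and 28.7 ± 3.54 FPKM and Slc38a1 (SNAT1) of 15.3 ± 2.48 and 14.5 ± 1.5 FPKM (SD over 5 and 4 libraries; limma adjusted p = 0.619 and 0.918). Slc43a2 (LAT4), a carrier of large neutral amino acids, was higher in every IL27ra KO library, 2.91 to 4.93 FPKM against 1.29 to 2.85 FPKM, and did not pass (log2 change 0.53, adjusted p = 0.25). The taurine transporter Slc6a6 had 10.6 to 14.6 FPKM in WT, against 27.4, 20.8, 22.4 and 13.3 FPKM in IL27ra KO, so that replicate 4 alone lay among the WT libraries (log2 change 0.60, adjusted p = 0.169).

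Genes that answer amino acid shortage had a median change below 0, and 1 passed in each direction. Of 20 genes of the amino acid stress response in the table, 17 were tested: Nupr1, a stress-induced nuclear protein, rose (log2 change 1.69, adjusted p = 0.0352), Chac1, a glutathione-degrading enzyme, fell by 0.98 on the log2 scale (adjusted p = 0.0304), and 15 did not pass (median -0.30). At the adjusted threshold, 3.13% of all genes tested rose and 1.11% fell. An unadjusted p under 0.05 in limma was found for 6 of the 17, in both directions, against 15.1% of all genes tested. Slc7a11 (xCT), the cystine importer often counted with this response, was under the level limit at 0.58 to 1.22 FPKM. Of 22 genes of lysosomal amino acid sensing and mTORC1, 21 were tested and 0 passed in limma (median 0.15). At an unadjusted p under 0.05 were 2 of the 21, against 15.1% of all genes tested. Of these 2, Mitf (log2 change 1.52, SE 0.53) is also among the 7 melanoma genes.

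**Figure D3:**
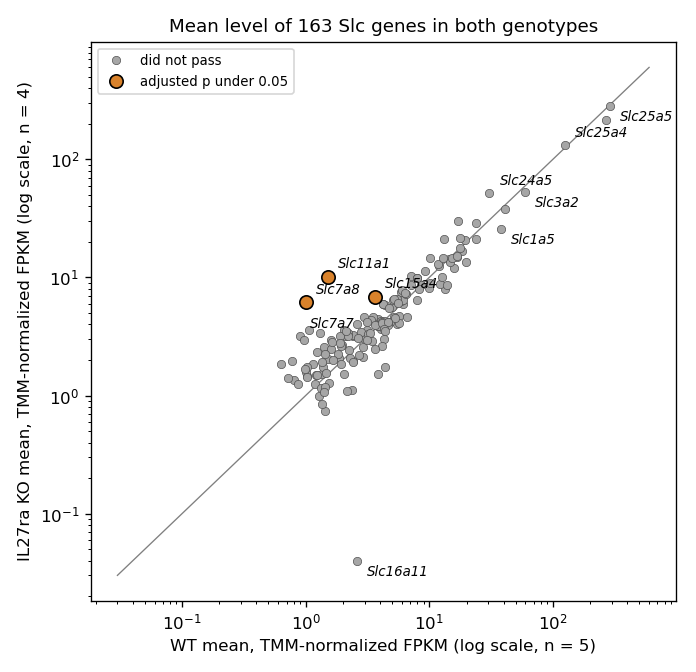
Mean TMM-normalized FPKM of each of the 163 Slc genes in WT (x axis) and IL27ra KO (y axis), both on log scales, with the line of equal levels. The mitochondrial carriers Slc25a5, Slc25a3 and Slc25a4 are at the top right near the line, and the 3 genes that passed lie above it at 1.00 to 3.61 FPKM in WT.

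Levels were dominated by mitochondrial carriers. Only 31 of the 163 genes reached a mean of 10 FPKM and 104 were under 5 FPKM. Slc25a5 and Slc25a4, which exchange ADP for ATP, and Slc25a3, which brings in phosphate for ATP synthesis, made up 32.5% to 55.4% of the summed Slc FPKM in WT libraries and 34.6% to 39.95% in IL27ra KO libraries. The highest share was that of WT replicate 2. Slc25a5 had 268, 489, 202, 202 and 278 FPKM in WT, against 306, 301, 282 and 234 FPKM in IL27ra KO, and Slc25a3 had 252, 435, 202, 213 and 241 FPKM and 243, 221, 220 and 183 FPKM. WT replicate 2 was the highest of all libraries for both, and the other libraries overlapped (log2 change 0.04 and -0.26, adjusted p = 0.969 and 0.707). Slc25a4 had means of 126 ± 29.97 and 131 ± 22.3 FPKM (95% interval of the log2 change -0.42 to 0.55). Slc25a4 and Slc25a5 are close in sequence, so RSEM may divide reads between them.

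None of the 32 genes of family 25 passed in limma, and their median log2 change was 0.05. An unadjusted p under 0.05 was found for 3 of the 32, against 15.1% of all genes tested. Slc25a39, a carrier of glutathione into mitochondria, had means of 40.9 ± 10.7 and 37.7 ± 4.75 FPKM (adjusted p = 0.911). In 2 of the 32 the genotypes were fully separated, 1 with IL27ra KO above and 1 with it below. Of all genes tested, 4.26% were separated with IL27ra KO above and 2.47% with it below. Slc25a17, a peroxisomal carrier of cofactors, had 13.2, 20.9, 11.6, 11.3 and 13.1 FPKM in WT, against 9.78, 8.60, 7.55 and 8.63 FPKM in IL27ra KO (log2 change -0.61, SE 0.20, adjusted p = 0.133). Slc25a29, a mitochondrial carrier of basic amino acids, had 0.49 to 1.52 FPKM in WT, against 1.58 to 2.40 FPKM in IL27ra KO (log2 change 0.76, SE 0.22, adjusted p = 0.0807), and it met the level limit through IL27ra KO alone.

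**Figure D4:**
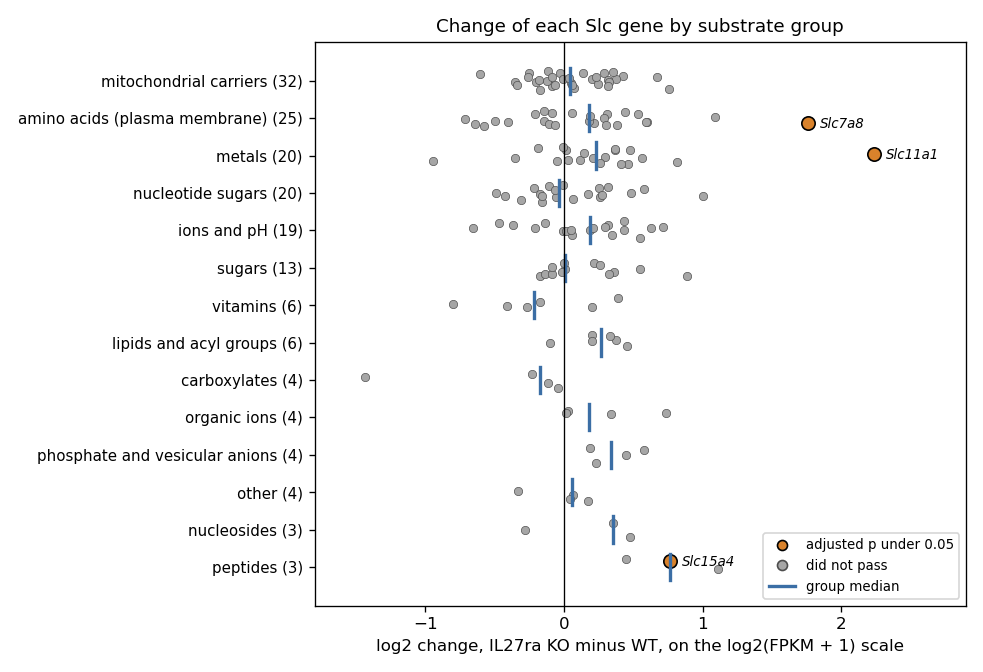
Log2 change (IL27ra KO minus WT, on the log2(FPKM + 1) scale) of each of the 163 Slc genes, in rows by substrate group with the number of genes in brackets; blue bars are group medians and orange points passed the test. Most points lie within 1 unit of 0, and the 3 that passed belong to the amino acid, metal and peptide groups.

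Family 35, grouped by its number as nucleotide sugar carriers, gave no call in limma among 20 genes (median log2 change -0.04). An unadjusted p under 0.05 was found for 5 of the 20, in both directions, against 15.1% of all genes tested. Slc35b1, which carries nucleotides across the endoplasmic reticulum membrane, was the most abundant, with 16.2 to 27.5 FPKM in WT, against 12.1 to 16.5 FPKM in IL27ra KO (log2 change -0.49, adjusted p = 0.243). Slc35a1, which supplies CMP-sialic acid to the Golgi, was higher in every IL27ra KO library, 7.18 to 8.52 FPKM against 5.33 to 6.96 FPKM, a log2 change of 0.32 that did not pass (adjusted p = 0.407).

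The ion and pH families (19 genes, with the scaffold Slc9a3r1 and the adaptor Slc4a1ap among them), the sugar families (13, with the pseudogene Slc2a4rg-ps), nucleoside carriers (3), vitamin carriers (6), carriers of lipids and acyl groups (6), of organic ions (4), of phosphate and vesicular anions (4) and of carboxylates (4) gave no call either, and their group medians ran from -0.22 (vitamins) to 0.35 (nucleosides). Slc24a5, an ion exchanger of melanosomes, was the most abundant ion carrier, with 35.9, 15.8, 29.3, 45.2 and 27.2 FPKM in WT, against 59.8, 72.1, 51.7 and 23.9 FPKM in IL27ra KO (adjusted p = 0.339). Its highest libraries in IL27ra KO, replicates 1 to 3, were also the highest of that group for the 7 melanoma genes (1120 to 1274 FPKM, against 541 FPKM in replicate 4); the part of tumour RNA in this value was not tested. The potassium-chloride cotransporter Slc12a7 had means of 10.2 ± 5.33 and 14.6 ± 3.62 FPKM, the endosomal sodium/proton exchanger Slc9a9 of 9.23 ± 3.35 and 11.2 ± 2.00 FPKM, and the bicarbonate cotransporter Slc4a7 of 4.05 ± 0.57 and 3.62 ± 0.76 FPKM (SD over 5 and 4 libraries; limma adjusted p = 0.485, 0.639 and 0.814).

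Slc20a1 (PiT1), a phosphate importer, had 14.5 to 20.7 FPKM in WT, against 16.6, 17.7, 19.2 and 32.6 FPKM in IL27ra KO (adjusted p = 0.693). IL27ra KO replicate 4 was the highest of the 9 libraries. Slc29a3, a lysosomal nucleoside carrier, had means of 4.20 ± 2.34 and 5.93 ± 1.62 FPKM, and Slc37a2, a sugar phosphate carrier known from macrophages, of 3.11 ± 0.65 and 2.96 ± 1.12 FPKM (SD over 5 and 4 libraries; limma adjusted p = 0.471 and 0.918). Slc2a5 (GLUT5), the fructose transporter, had 0.55 to 2.61 FPKM in WT, against 5.69, 3.78, 2.79 and 1.21 FPKM in IL27ra KO (log2 change 0.89, adjusted p = 0.189). Slc16a11, a monocarboxylate carrier, was listed at 0 in WT replicate 3 and in IL27ra KO replicates 1 to 3, with 0.16 FPKM in replicate 4 and 3.12, 7.02, 0.73 and 2.07 FPKM in WT replicates 1, 2, 4 and 5; it did not pass (adjusted p = 0.120).

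Separation of the groups was more frequent than calls. All IL27ra KO libraries were above all WT libraries for 10 of the 163 genes (6.13%, against 4.26% of all genes tested), and all were below for 3 (1.84%, against 2.47%). The 10 were Slc7a8, Slc11a1, Slc12a9, Slc15a4, Slc17a5, Slc25a29, Slc30a4, Slc35a1, Slc35a5 and Slc43a2, and the 3 were Slc1a5, Slc7a1 and Slc25a17. Of the 10, Slc25a29 and Slc30a4 met the level limit only through IL27ra KO. Slc17a5, the lysosomal exporter of sialic acid, had 0.80 to 1.88 FPKM in WT, against 1.93 to 3.38 FPKM in IL27ra KO (log2 change 0.57, adjusted p = 0.204).

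**Figure D5:**
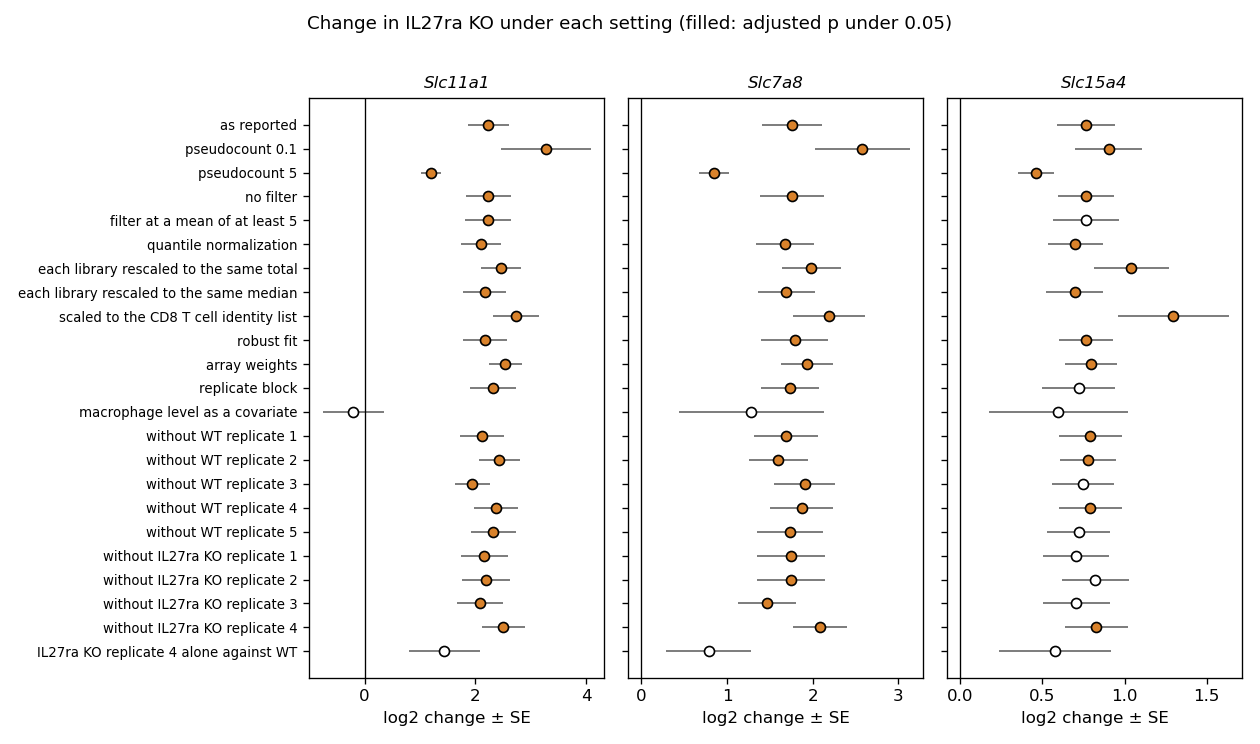
Log2 change (± SE) of Slc11a1, Slc7a8 and Slc15a4 under the reported fit and each alternative; filled points have an adjusted p under 0.05. Slc11a1 stays above 0 in each setting other than the fit with the macrophage level as a covariate (-0.20). All 3 genes lose their call in that fit, and Slc15a4 loses it in several others. The fit with IL27ra KO replicate 4 alone allows hardly any call. Slc7a8 has no point at the limit of 5 FPKM, which it did not meet.

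Which library was used moved the count of calls. Without IL27ra KO replicate 4, 9 Slc genes were higher and 1 lower (against 4.32% and 1.77% of all genes in that fit), adding Slc7a7, Slc15a3, Slc39a1, Slc2a5, Slc35f5 and Slc6a6 as higher and Slc39a4 as lower. Of these, Slc7a7 and Slc35f5 had a WT mean under 1 FPKM and met the level limit only through IL27ra KO. That library had the lowest macrophage level and the highest CD8 T cell identity level of its group. Set alone against WT, a single library that allows hardly any call, it had log2 changes of 1.44 for Slc11a1, 0.78 for Slc7a8 and 0.58 for Slc15a4. Without the library labelled WT replicate 2, whose Il27ra level was in the IL27ra KO range, 4 Slc genes were higher and 1 lower (against 3.36% and 1.42% of all genes in that fit). Equal CD8 T cell marker levels gave 9 higher and 1 lower (against 6.75% and 0.472% of all genes). Rescaling to the same total gave 7 and 0 (against 5.06% and 0.627%). These scalings moved the median of all genes to 0.54 and 0.29. The single row Rn45s made up 23.9% to 53.8% of the summed FPKM of a library, so the same total rests in large part on that row.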

How the data were processed

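Per the labels, the authors deposited 1 table of FPKM per gene, made with RSEM and scaled by TMM. Per the submitters' processing notes, TopHat, RSEM and DESeq and the build mm9 were used; their versions and roles: not given in the sources used here. RSEM divides reads shared by similar genes, TMM rests on most genes being unchanged, and SMART-Seq 2 libraries carry no molecular identifiers, so PCR copies add to the spread.

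Values were moved to the log2 scale after adding 1, and the 10374 genes averaging 1 FPKM or more were kept. Genotypes were tested with limma 3.58.1 (R 4.3.3; eBayes, trend fitted) and Benjamini-Hochberg adjustment over all genes tested, at a threshold of 0.05. Depth is not given with the values. The FPKM value of 1 fragment, TMM scaling included, was estimated from the steps of low FPKM in 3259 single-transcript genes with GENCODE M21 lengths. In each library the step was chosen to give the most whole multiples. With it, 62.4% to 68.6% of low values were whole multiples to within 0.1. Evenly spread values would give 20% for a step fixed in advance, a share that such a choice can only raise. The code was tested on simulated data before use.

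The genes, lists and tests were chosen with earlier results of these data known. Named are the genes that passed, the 8 with the highest mean, a list of carriers known from T cells or macrophages, and up to 4 passing members of each comparison list. Slc39a1, Slc39a4, Slc6a6, Slc2a5, Slc2a4rg-ps, Slc4a1ap, Slc7a6os, Slc9a3r1, Slc15a2, Slc16a11, Slc25a17, Slc25a29, Slc35a1, Slc35b1, Slc35f5, Slc17a5 and the other genes of separated groups were named after their values were seen. So were Mitf, Zbtb46, Ccr7, Flt3 and Xcr1. Alternatives were pseudocounts of 0.1 and 5, other level limits and scalings, robust and weighted fits, a replicate block, the macrophage level as a covariate and each library left out. IL27ra KO replicate 4 alone was added after the data were seen. RefSeq start sites are of GRCm38, not mm9, and were used only for the promoter sequences. The result of 1 comparison list, ion pumps and partner subunits, is not reported here.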

Additional observations from a re-analysis of the deposited data

Results flagged for a closer look

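Within a group, 6 of the 54 sets of values examined (27 genes, 2 groups) had 1 library far from the others, where chance flags about 1 in 20 sets. WT replicate 2 was high for Slc25a3 (435 FPKM, others 202 to 252) and Slc25a5 (489 FPKM, others 202 to 278). WT replicate 3 was high for Slc29a3 (8.28 FPKM, others 2.35 to 3.87). IL27ra KO replicate 4 was high for Slc20a1 (32.6 FPKM, others 16.6 to 19.2) and Slc4a7 (4.75 FPKM, others 3.13 to 3.36), and low for Slc7a1 (6.38 FPKM, others 8.40 to 8.48). None of these 6 genes passed the test between the genotypes.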

How the results depend on the processing

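Against 3 Slc genes higher and 0 lower, and 325 and 115 of all genes, the alternatives gave these counts. A level limit of 5 FPKM left 59 Slc genes and gave 1 Slc gene higher (155 and 64 of all genes). Quantile normalization gave 2 Slc genes lower (167 of all genes). Rescaling to the same total gave 7 higher (525 and 65 of all genes), and to the CD8 T cell identity genes 9 higher and 1 lower (700 and 49). The robust fit gave 13 and 5 (697 and 417) and array weights 8 and 5 (632 and 342). The macrophage covariate gave 0 Slc genes higher (4 and 6 of all genes). At an unadjusted p under 0.05 in limma, that fit had 16 of the 163 Slc genes, against 1305 of all 10374 genes tested. IL27ra KO replicate 4 alone was a fit with 1 library in an arm, assumed to vary like the others, that allows hardly any call. With 1 library left out, 2 to 9 Slc genes were higher and 0 to 2 lower (169 to 448 and 57 to 184 of all genes). The cause of these differences was not tested.

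Of 586 values of named genes under alternatives, 516 kept direction and call, 41 changed sign, 17 gained a call and 12 lost it. A value that changed sign was counted only as such. Slc11a1 with the macrophage covariate, which also lost its call, is therefore not among the 12. The sign changed under rescaling to the same total for Slc25a3 (0.074), Slc25a39 (0.24), Slc37a2 (0.16), Slc38a1 (0.24), Slc3a2 (0.18) and Slc4a7 (0.12), and to the same median for Slc25a5 (-0.028). It changed under scaling to the CD8 genes for Slc1a5 (0.025), Slc25a3 (0.37), Slc25a39 (0.53), Slc37a2 (0.43), Slc38a1 (0.52), Slc3a2 (0.47), Slc4a7 (0.36) and Slc7a6 (0.16), and with array weights for Slc25a39 (0.019) and Slc37a2 (0.042). With the macrophage covariate it changed for Slc11a1 (-0.20), Slc15a3 (-0.40), Slc1a5 (0.025), Slc25a4 (-0.70), Slc25a5 (-1.03), Slc38a1 (0.15), Slc48a1 (-0.42), Slc4a7 (0.32) and Slc7a6 (0.24). With IL27ra KO replicate 4 alone it changed for Slc24a5 (-0.27), Slc25a4 (-0.28), Slc25a5 (-0.21), Slc48a1 (-0.088), Slc4a7 (0.19) and Slc7a5 (-0.14). With 1 library left out, values ran from -0.20 to 0.020 for Slc25a39, -0.033 to 0.19 for Slc25a4, -0.068 to 0.25 for Slc25a5, -0.23 to 0.082 for Slc37a2 and -0.16 to 0.0016 for Slc38a1. Slc11a1 and Slc7a8 passed in all 9 of these fits.

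Libraries with the same replicate number did not deviate together (correlations 0.0027, -0.0083, -0.066 and -0.147). This does not show whether they were collected or prepared together. With the replicate block, 2 Slc genes were higher and 0 lower (217 and 56 of all genes), and Slc15a4 did not pass (log2 change 0.72; limma, adjusted p = 0.157). WT replicate 5 has no partner of its number, so it did not enter the change in that fit. Slc15a4 also did not pass with WT replicate 5 omitted and no block. Genes near 1 FPKM rest on few fragments, and 5 against 4 libraries limit the precision of every change given.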
